A study of Arabidopsis thaliana with 9 samples.

Results

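The type-A response regulators of Arabidopsis thaliana are 10 small proteins, many of them induced by the plant hormone cytokinin, that dampen its signal. The family was measured here as all 10 of its genes, ARR3 to ARR9 and ARR15 to ARR17, found by locus ID among 33602 gene IDs. The family was picked from several with its values in these 9 libraries already known, so its differences between genotypes are given as a description. The libraries were made from polyA-selected RNA of whole rosettes, 21 days old, from soil-grown plants in a cycle of 16 hours light and 8 hours dark. Both mutants carry an insertion in PDX3, the gene of an oxidase that makes pyridoxal 5'-phosphate, the cofactor form of vitamin B6. The groups were pdx3-3 (SALK_054167C), pdx3-4 (GK-260E03) and the wild type, with 3 libraries each that the labels call biological replicates, and all are of the ecotype Col-0. Each mutant is 1 insertion line. The comparisons ask how a lower level of PDX3 transcript went with the rosette's gene expression, in each allele against Col-0 and between the alleles.

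In cytokinin signalling, receptor kinases (AHKs) at membranes pass a phosphate through shuttle proteins (AHPs) to response regulators in the nucleus. Type-B response regulators are transcription factors that bind DNA and switch on cytokinin target genes, among them the type-A genes. Type-A proteins have the receiver domain but no DNA-binding domain, and most of them inhibit the pathway, so their transcripts are widely read as a record of recent cytokinin signalling. The binding core of type-B factors in Arabidopsis is usually written AGATT.

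By their coding sequences the 10 members fell into 5 closest pairs, ARR3 with ARR4 (80.7% identical bases), ARR5 with ARR6 (80.1%), ARR7 with ARR15 (79.4%), ARR8 with ARR9 (79.9%) and ARR16 with ARR17 (82.9%). The longest run of identical bases between the transcripts of a pair was 41, 20, 19, 41 and 23 bases in the same order. The sequences below are the 300 bases before the annotated start of 4 genes, read from RefSeq's TAIR10.1 genome and written 5′ to 3′ on the gene's strand. ARR5 is shown as the member with more transcript in both mutants and ARR6 as its closest relative, while ARR15 and ARR16 had the largest falls shared by both mutants. Capitals mark AGATT or its reverse complement AATCT. The windows are ARR5 chr3:17760951-17761250 (- strand), ARR6 chr5:25254319-25254618 (- strand), ARR15 chr1:28133026-28133325 (- strand) and ARR16 chr2:16969373-16969672 (+ strand).
ARR5: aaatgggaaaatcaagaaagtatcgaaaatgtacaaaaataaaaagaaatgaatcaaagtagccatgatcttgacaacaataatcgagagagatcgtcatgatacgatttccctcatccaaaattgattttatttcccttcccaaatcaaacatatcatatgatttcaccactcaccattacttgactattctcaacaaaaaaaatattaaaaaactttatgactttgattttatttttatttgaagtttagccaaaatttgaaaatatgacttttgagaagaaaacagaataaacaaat
ARR6: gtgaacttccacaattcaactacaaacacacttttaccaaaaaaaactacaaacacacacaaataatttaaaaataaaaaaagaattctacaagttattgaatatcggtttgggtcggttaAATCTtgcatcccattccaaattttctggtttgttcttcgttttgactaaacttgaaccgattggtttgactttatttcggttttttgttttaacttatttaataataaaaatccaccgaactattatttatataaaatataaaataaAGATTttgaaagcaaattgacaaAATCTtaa
ARR15: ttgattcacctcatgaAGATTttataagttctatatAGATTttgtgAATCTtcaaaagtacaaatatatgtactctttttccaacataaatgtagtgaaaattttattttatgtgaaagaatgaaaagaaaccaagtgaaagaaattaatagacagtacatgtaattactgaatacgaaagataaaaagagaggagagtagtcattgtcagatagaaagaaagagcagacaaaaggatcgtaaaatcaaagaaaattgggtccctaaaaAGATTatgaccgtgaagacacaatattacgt
ARR16: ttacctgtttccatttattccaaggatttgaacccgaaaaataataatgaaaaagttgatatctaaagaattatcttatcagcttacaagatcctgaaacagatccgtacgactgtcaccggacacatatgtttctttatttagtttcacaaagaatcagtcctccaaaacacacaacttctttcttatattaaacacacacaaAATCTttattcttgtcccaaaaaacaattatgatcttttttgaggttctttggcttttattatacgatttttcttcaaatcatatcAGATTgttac

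AGATT, searched on both strands, occurred 0 times in the ARR5 window, 3 times in that of ARR6, 4 times in that of ARR15 and 2 times in that of ARR16. It occurred 3 times for ARR7, 2 times for ARR9, 1 time each for ARR3 and ARR8, and 0 times for ARR4 and ARR17. Of the 27443 protein-coding genes scanned in the same way, 70.7% held at least 1, 35.8% at least 2, 13.8% at least 3 and 4.73% at least 4. A match is a match of letters only, and its absence says only that these letters are not in this window.

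Totals were 15912737 to 20973958 counts in pdx3-3, 20754721 to 21312901 in pdx3-4 and 18689726 to 21938941 in Col-0. PDX3 itself (AT5G49970, named PPOX in the reference) had 9.24, 8.22 and 10.8 CPM (counts over the library total, times 1000000) in pdx3-3 and 43.4, 51.5 and 42.7 CPM in pdx3-4, against 90.1, 88.9 and 78.7 CPM in Col-0. Transcript thus remained in both alleles, and where its reads lie relative to the insertions was not analysed here. Organellar genes took 0.678% of the counts in pdx3-3 library 1 and 0.227% in pdx3-3 library 2, against 0.0210% to 0.0673% in the other 7 libraries, so changes in pdx3-3 are also given without those 2. All 3 leaf mesophyll markers were abundant, with a summed 43674 to 47378 CPM in pdx3-3, 42735 to 47945 CPM in pdx3-4 and 52010 to 56425 CPM in Col-0. Of 4 root markers, EXPA7 and RHD6 were at 0 in every library COBL9 had 1 count in all, and PYK10 had 19.6 to 48.9 CPM in pdx3-3, 39.0 to 61.1 CPM in pdx3-4 and 38.3 to 42.9 CPM in Col-0.

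ARR4, ARR8, ARR15 and ARR16 had less transcript in both mutants, ARR6, ARR7 and ARR9 were called lower in pdx3-3 alone, and ARR5 was the tested member with more in both. A gene was tested if it passed a filter on low counts, and it was called higher or lower at an adjusted p under 0.05 (edgeR's quasi-likelihood test, Benjamini-Hochberg over all 18783 genes tested). ARR3 and ARR17 did not pass the filter. In pdx3-3, 7 of the 8 tested members were called lower than in Col-0, where 17.5% of all genes tested were called lower. The remaining member, ARR5, was called higher, as were 19.0% of all genes. In pdx3-4, 4 of 8 were called lower (18.4% of all genes), ARR5 was called higher (20.9% of all genes) and 3 were not called. The median log2 fold change of the 8 was −0.97 in pdx3-3 and −0.28 in pdx3-4, beside −0.03 and −0.01 over all genes. Between the alleles 1 of 8 was called lower in pdx3-3, ARR6, with 2.84% of all genes called lower and 3.32% called higher. The share for all genes in that last comparison depended on single libraries, as 391 to 1816 genes were called when 1 of the 9 was left out, against 1157 with all 9. Because the family was chosen with these values known, nothing is read from the counts of members against those shares. Whole rosettes were sampled, so fewer cells that carry a transcript and less of it per cell cannot be told apart.

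**Figure D1:**
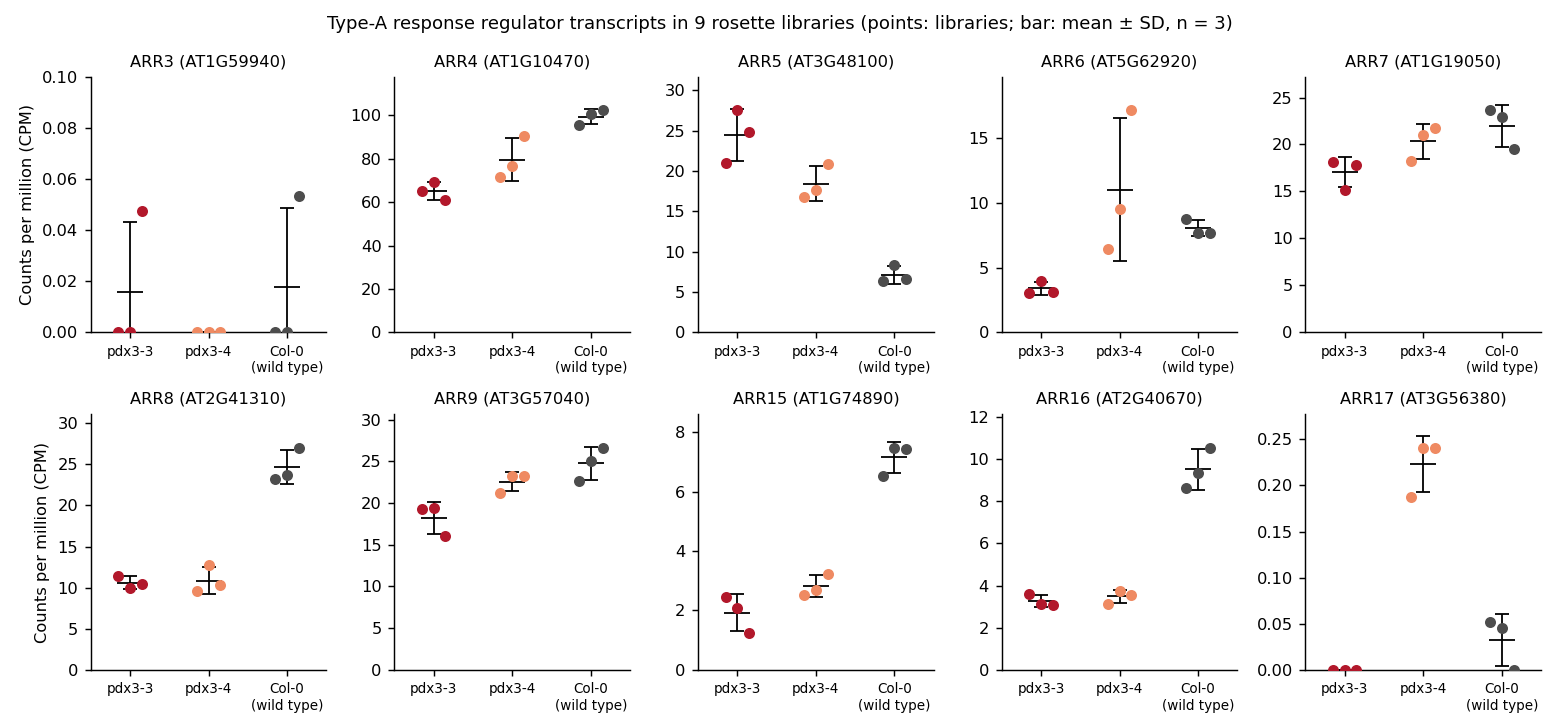
CPM of each member in each library (points; axis from 0, a different range per gene), with the mean and SD of the 3 libraries of each genotype (bars). ARR8, ARR15 and ARR16 lie lower in every pdx3-3 and pdx3-4 library than in any Col-0 library, ARR5 lies higher, and ARR6 is spread widely in pdx3-4.

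ARR5 (AT3G48100, RR5 in the reference; chromosome 3, 17758427 to 17760950), a gene rapidly induced by cytokinin, was the only tested member with more transcript in both mutants. It had 21.0, 27.5 and 24.8 CPM in pdx3-3 and 16.8, 17.6 and 20.9 CPM in pdx3-4, against 6.38, 8.34 and 6.58 CPM in Col-0. All 6 mutant libraries lay above all 3 Col-0 libraries. Against Col-0 the log2 fold change was 1.72 (SE 0.148, 3.30-fold) in pdx3-3 and 1.32 (SE 0.149, 2.49-fold) in pdx3-4. Between pdx3-3 and pdx3-4 it was 0.41 (SE 0.136), which was not called. On CPM the lowest pdx3-3 library lay just above the highest pdx3-4 library. With the TMM factors that the fit uses to scale library sizes, the alleles overlapped.

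ARR6 (AT5G62920; chromosome 5, 25252007 to 25254318), the closest relative of ARR5 and also cytokinin-induced, behaved differently in the 2 alleles. It had 3.08, 3.96 and 3.15 CPM in pdx3-3 and 6.43, 9.52 and 17.2 CPM in pdx3-4, against 8.75, 7.70 and 7.70 CPM in Col-0. The pdx3-3 libraries lay below all others, while the pdx3-4 libraries lay on both sides of Col-0 and had the largest relative spread of any tested member (SD 5.52 CPM, n = 3). Log2 fold changes were −1.30 (SE 0.327) in pdx3-3, 0.41 (SE 0.292, not called) in pdx3-4, and −1.70 (SE 0.321) in pdx3-3 against pdx3-4. The pdx3-4 value turned to −0.09 without pdx3-4 library 3 and became a call at 0.69 without pdx3-4 library 1. Without pdx3-3 libraries 1 and 2 the changes against Col-0 and pdx3-4 were −1.41 and −1.82, and neither was called, with 1 pdx3-3 library left. ARR6 shares 348 bases with AT5G62910, a protein-coding gene on the opposite strand, which had 14.4 to 15.7 CPM in pdx3-3, 17.8 to 20.6 CPM in pdx3-4 and 11.1 to 13.2 CPM in Col-0. Whether the counting used the strand is not stated in the labels, and reads from that stretch may count for either gene.

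The balance within this pair separated all 3 genotypes without reference to library size. The ratio of ARR5 to ARR6 counts was 6.82, 6.94 and 7.89 in pdx3-3 and 2.61, 1.85 and 1.22 in pdx3-4, against 0.729, 1.08 and 0.854 in Col-0. No library of one genotype overlapped with another genotype, and the lowest pdx3-4 ratio lay close to the highest Col-0 ratio.

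ARR7 (AT1G19050; chromosome 1, 6577833 to 6579314) and ARR15 (AT1G74890; chromosome 1, 28131447 to 28133025) are cytokinin-induced regulators known for restraining cytokinin response in the shoot meristem, where the stem cell factor WUSCHEL represses them together with ARR5 and ARR6. ARR15 had 2.45, 2.08 and 1.24 CPM in pdx3-3 and 2.53, 2.69 and 3.23 CPM in pdx3-4, against 6.54, 7.48 and 7.44 CPM in Col-0. The highest mutant library had 3.23 CPM and the lowest Col-0 library 6.54 CPM. ARR15 had a log2 fold change of −1.97 (SE 0.215, 3.91-fold lower) in pdx3-3 and −1.39 (SE 0.202, 2.63-fold lower) in pdx3-4. Without pdx3-3 libraries 1 and 2, the value in pdx3-3 was −2.58. Between the alleles it was −0.57 (SE 0.230), which was not called.

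ARR7 differed far less. It had 18.1, 15.2 and 17.8 CPM in pdx3-3 and 18.3, 21.1 and 21.8 CPM in pdx3-4, against 23.6, 22.9 and 19.5 CPM in Col-0. On CPM the pdx3-3 libraries lay below the others, the highest by little, and the pdx3-4 and Col-0 libraries overlapped. With the TMM factors that the fit uses to scale library sizes, the alleles overlapped too. The log2 fold change of ARR7 was −0.43 (SE 0.115) in pdx3-3 and −0.17 (SE 0.113, not called) in pdx3-4. The call in pdx3-3 was lost without pdx3-3 library 2 (−0.35) and without pdx3-3 libraries 1 and 2 (−0.36).

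The ratio of ARR7 to ARR15 counts was 7.38, 7.31 and 14.3 in pdx3-3 and 7.20, 7.82 and 6.75 in pdx3-4, against 3.61, 3.06 and 2.62 in Col-0. The lowest mutant ratio was thus above the highest Col-0 ratio, and the 2 alleles overlapped. The shoot meristem markers were also higher by their sum, most of all in pdx3-3. Their summed level was 2.92 to 6.25 CPM in pdx3-3 and 1.55 to 1.73 CPM in pdx3-4, against 0.618 to 1.34 CPM in Col-0. Of these 4 markers the defining CLV3 was at 0 in every library and WUS had a count in 2 of 9, so the sum came from STM and KNAT1. Both were called higher in pdx3-3 than in Col-0. Neither was called in pdx3-4, where the STM libraries overlapped with Col-0. The part of the marker difference in the values of ARR5, ARR6, ARR7 and ARR15 was not tested.

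ARR8 (AT2G41310, RR3 in the reference; chromosome 2, 17221840 to 17224880) and ARR9 (AT3G57040; chromosome 3, 21109059 to 21111567) form the third pair, in which cytokinin induction is weaker than for ARR5 to ARR7. ARR8 had 11.4, 9.91 and 10.4 CPM in pdx3-3 and 9.52, 12.7 and 10.3 CPM in pdx3-4, against 23.2, 23.7 and 27.0 CPM in Col-0. The 2 alleles overlapped and lay well apart from Col-0. The log2 fold change of ARR8 was −1.28 (SE 0.108, 2.42-fold lower) in pdx3-3, −1.24 (SE 0.107, 2.36-fold lower) in pdx3-4 and −0.04 (SE 0.113) between the alleles.

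ARR9 had 19.3, 19.4 and 16.0 CPM in pdx3-3 and 21.3, 23.3 and 23.2 CPM in pdx3-4, against 22.6, 25.0 and 26.6 CPM in Col-0. The pdx3-3 libraries lay below all others, and pdx3-4 overlapped with Col-0. ARR9 had a log2 fold change of −0.50 (SE 0.0967) in pdx3-3 and −0.19 (SE 0.0948, not called) in pdx3-4, where upper-quartile size factors turned it into a call (−0.30). The ratio of ARR9 to ARR8 counts was 1.69, 1.96 and 1.54 in pdx3-3 and 2.23, 1.83 and 2.26 in pdx3-4, against 0.976, 1.06 and 0.986 in Col-0. In raw counts, which take no account of gene length, the pair was thus near parity in Col-0 libraries and at 1.54 or above in each mutant library. Per kb of exon, ARR9 lay above ARR8 in Col-0 as well, with means of 13.1 and 10.4 CPM per kb. ARR8 shares 299 bases and ARR9 231 bases with an annotated long non-coding RNA on the opposite strand, and these RNAs have no ID in the files.

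**Figure D2:**
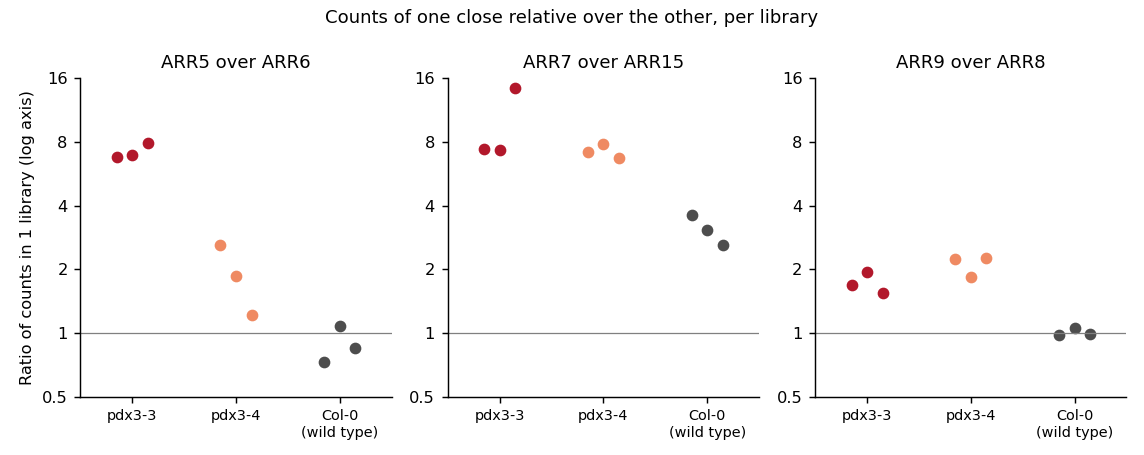
Ratio of the counts of a member to those of its closest relative in the same library (log axis), 1 point per library, for ARR5 over ARR6, ARR7 over ARR15 and ARR9 over ARR8. In each panel all pdx3-3 and pdx3-4 libraries lie above all Col-0 libraries, and in the ARR5 over ARR6 panel the alleles are apart too, at 6.82 to 7.89 in pdx3-3 and 1.22 to 2.61 in pdx3-4. The member with the higher log2 fold change is the numerator in each panel, so the shared upward direction follows from that order.

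ARR16 (AT2G40670, RR16 in the reference; chromosome 2, 16969673 to 16972113) is a shorter type-A regulator, known in leaves as a target of the stomatal lineage factor SPEECHLESS. It had 3.58, 3.12 and 3.05 CPM in pdx3-3 and 3.14, 3.75 and 3.57 CPM in pdx3-4, against 8.65, 9.34 and 10.54 CPM in Col-0. The mutant alleles overlapped, and the highest mutant library had 3.75 CPM, against 8.65 CPM in the lowest Col-0 library. Against Col-0 the log2 fold change was −1.61 (SE 0.127, 3.05-fold lower) in pdx3-3 and −1.50 (SE 0.125, 2.82-fold lower) in pdx3-4, with −0.11 (SE 0.137, not called) between the alleles.

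ARR17 (AT3G56380, RR17 in the reference; chromosome 3, 20905264 to 20906397), its closest relative, was barely detected. It had 0, 0 and 0 counts in pdx3-3 and 4, 5 and 5 counts in pdx3-4, against 1, 1 and 0 counts in Col-0. The pdx3-4 libraries were higher than every other library, from few reads. Summed over libraries and scaled to their totals, pdx3-4 had 6.69 times the level of Col-0, with an exact 95% interval of 1.54 to 60.6 that covers counting error only. A count of 0 allows up to 3 counts over the group, so ARR17 was at least 4.24-fold lower in pdx3-3 than in pdx3-4, taking the 14 counts of pdx3-4 as they stand. Their own exact 95% interval was 0.122 to 0.374 CPM, and that of pdx3-3 reached up to 0.0646 CPM.

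ARR4 (AT1G10470; chromosome 1, 3441988 to 3444360), which also binds the light receptor phytochrome B, was the most abundant member. It had 65.0, 69.2 and 61.0 CPM in pdx3-3 and 71.5, 76.6 and 90.5 CPM in pdx3-4, against 95.6, 100.4 and 102.2 CPM in Col-0. The 3 genotypes did not overlap, with pdx3-3 lowest and Col-0 highest. The log2 fold change was −0.67 (SE 0.0999, 1.59-fold lower) in pdx3-3 and −0.37 (SE 0.0992, 1.29-fold lower) in pdx3-4, and −0.30 (SE 0.0999) between the alleles, which was not called. The pdx3-4 call was lost without pdx3-4 library 1 (−0.29) or without pdx3-4 library 2 (−0.34). Its closest relative ARR3 (AT1G59940; chromosome 1, 22065617 to 22067233) had 1 count in all of pdx3-3 and 0 in pdx3-4, against 1 in Col-0, so no difference was detectable at this depth.

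**Figure D3:**
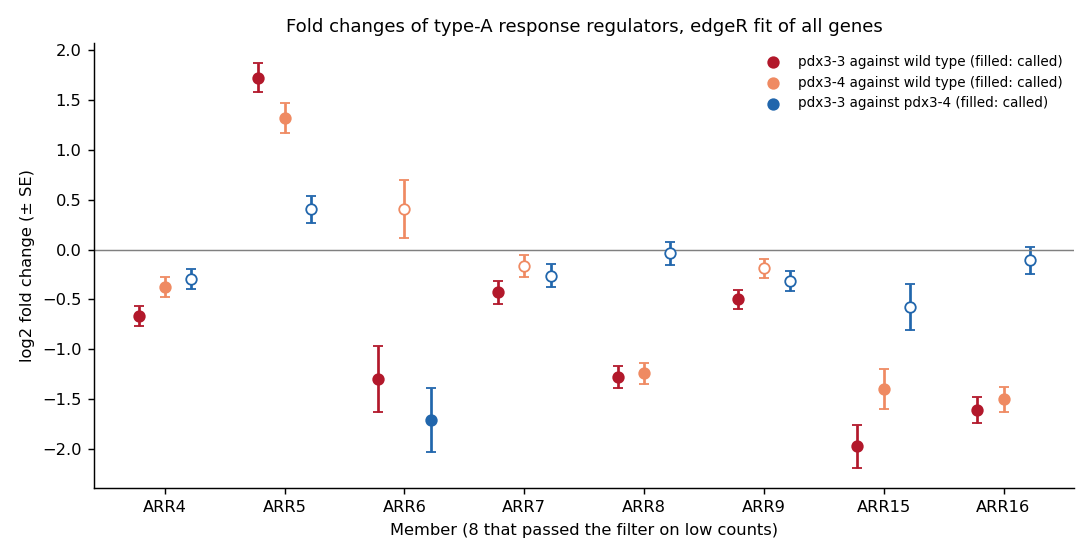
Log2 fold change with its SE for the 8 tested members in pdx3-3 against Col-0, pdx3-4 against Col-0, and pdx3-3 against pdx3-4 (filled points: called, open points: not called). ARR5 is the only member above 0 in both mutants, and ARR6 is the only called one between the alleles, at −1.70.

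With pdx3-3 libraries 1 and 2 left out, 5 members were still called lower in pdx3-3 (7.51% of all genes) and ARR5 still higher (13.3% of all genes). The log2 fold changes were then −0.76 for ARR4, 1.74 for ARR5, −1.30 for ARR8, −0.68 for ARR9 and −1.69 for ARR16, beside those given above for ARR6, ARR7 and ARR15.

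The members could be sorted by whether the alleles had a similar size of change. For ARR8 and ARR16 the change in pdx3-3 and in pdx3-4 differed by 0.04 and 0.11 on the log2 scale. For ARR4, ARR7, ARR9 and ARR15 the pdx3-3 value was the lower one, by 0.30, 0.26, 0.31 and 0.57, and none of these differences was called. The 2 alleles share the Col-0 libraries, so their values are set side by side and no correlation is drawn from them. Over the 9 libraries, the centred log2 CPM of ARR8 was nearest to that of ARR16 among the members and the reverse (root mean square difference 0.146), and ARR4 and ARR9 were each other's nearest (0.119). ARR5 and ARR6 were far from every member, with 0.913 to the nearest for ARR5 (ARR7) and 0.587 for ARR6 (ARR4). This measure depends on the size of change as well as its pattern. The root mean square of a member's own centred values was 0.295 for ARR4 and 0.230 for ARR9, against 0.752 for ARR5 and 0.772 for ARR6.

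Summed over the 10 members, type-A transcripts came to 144, 150 and 138 CPM in pdx3-3 and 150, 167 and 191 CPM in pdx3-4, against 195, 205 and 208 CPM in Col-0. Both mutants lay below Col-0 in all libraries, the highest pdx3-4 library by little. Without ARR4, the sums were 78.9, 81.1 and 76.5 CPM in pdx3-3 and 78.1, 90.9 and 100.3 CPM in pdx3-4, against 99.9, 104.5 and 105.5 CPM in Col-0. On those sums pdx3-4 and Col-0 overlapped. Levels of different genes were compared as CPM per kb of exon. In Col-0 ARR4 led with 47.3 ± 1.63 CPM per kb (SD, n = 3), then ARR7 with 23.3 ± 2.35, ARR9 with 13.1 ± 1.06, ARR8 with 10.4 ± 0.874 and ARR15 with 6.63 ± 0.492, each apart from the next. ARR6 (5.52 ± 0.414), ARR5 (4.90 ± 0.744) and ARR16 (4.58 ± 0.461) followed, and in this order neighbours overlapped. ARR17 and ARR3 averaged 0.0523 and 0.0136 CPM per kb.

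In the mutants ARR5 stood higher in this order, at the third place by mean. In pdx3-3 it had 16.9 ± 2.26 CPM per kb, overlapping with ARR7 above it (18.1 ± 1.68) and apart from ARR9 below it (9.62 ± 1.01). In pdx3-4 it had 12.7 ± 1.49 CPM per kb, overlapping with ARR9 (11.9 ± 0.607) and apart from ARR7 (21.6 ± 1.98). With the longest transcript as length, ARR9 in pdx3-4 came to 13.9 CPM per kb, above ARR5 in that genotype. ARR4 stayed in the first place with 31.0 ± 1.94 CPM per kb in pdx3-3 and 37.9 ± 4.69 in pdx3-4. ARR5 made up 19.7% of the family's summed CPM per kb in pdx3-3 and 12.6% in pdx3-4, against 4.22% in Col-0, while ARR15 made up 2.07% in pdx3-3 and 2.59% in pdx3-4, against 5.72% in Col-0.

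**Figure D4:**
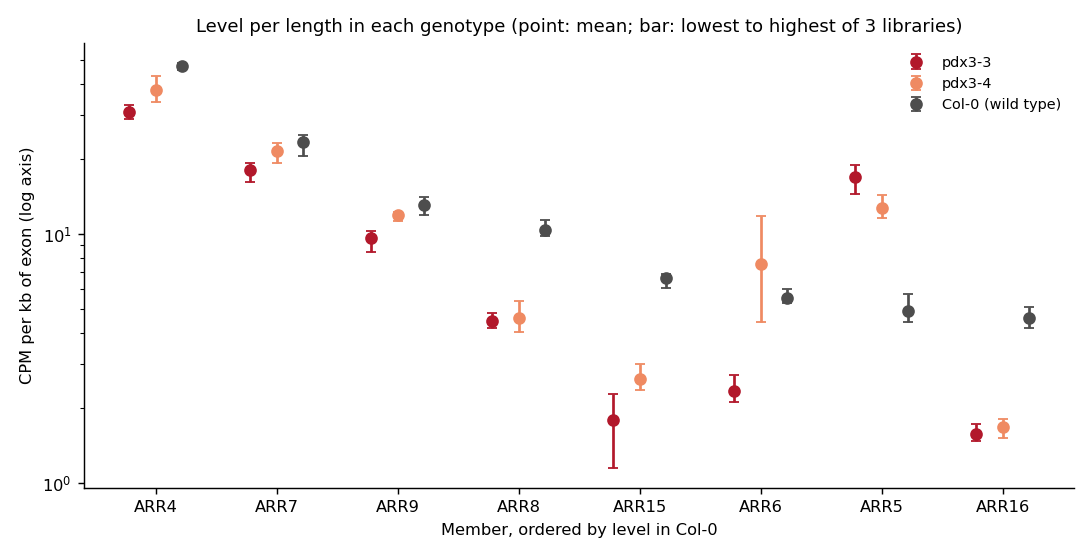
CPM per kb of exon on a log axis for the 8 members that passed the filter, ordered by their level in Col-0, with the mean (point) and the lowest and highest of 3 libraries (bar) in pdx3-3, pdx3-4 and Col-0. ARR5 stands at 16.9 in pdx3-3 and 12.7 in pdx3-4, against 4.90 in Col-0, and lies above ARR8 and ARR15 in both mutants, while its pdx3-4 range overlaps those of ARR9 and ARR6.

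In the rest of the cytokinin pathway, genes were called in both directions. Of 72 further cytokinin genes in 9 lists, 47 were tested. In pdx3-3, 13 were called higher and 12 lower, and in pdx3-4, 14 were called higher and 10 lower, with medians over the 47 of −0.02 and 0.14. Of all genes tested, 19.0% were called higher and 17.5% lower in pdx3-3, and 20.9% and 18.4% in pdx3-4, which is the background for each list that follows. Adjusted p-values in the paragraphs that follow are edgeR's quasi-likelihood values adjusted over all genes tested. The lists were chosen with earlier results of these data known, and the named genes for the smallest adjusted p in their list. These values are therefore given as a description of the named genes.

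Of 6 tested synthesis genes, 2 rose and 3 fell in each mutant. IPT3, an isopentenyltransferase that makes cytokinin precursors, mainly in phloem, fell to 10.9 ± 0.897 CPM in pdx3-3 and 8.74 ± 0.859 CPM in pdx3-4, against 24.3 ± 3.67 CPM in Col-0 (SD, n = 3 each). This was a log2 fold change of −1.21 in pdx3-3 (SE 0.111, adjusted p = 1.29e-05) and −1.52 in pdx3-4 (SE 0.113, adjusted p = 3.9e-06). The 3 phloem markers summed to 161 to 185 CPM in pdx3-3 and 174 to 206 CPM in pdx3-4, against 209 to 305 CPM in Col-0, where library 3 was highest, and the part of this in IPT3 was not tested. LOG7, which releases the active hormone from its nucleotide, rose in both, with log2 1.52 in pdx3-3 (SE 0.145, adjusted p = 1.64e-05) and 1.55 in pdx3-4 (SE 0.144, adjusted p = 1.42e-05). LOG8, of the same enzyme family, fell by 0.57 on the log2 scale in pdx3-3 (adjusted p = 0.000284) and by 0.40 in pdx3-4 (adjusted p = 0.00249).

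Among 10 tested genes of breakdown and conjugation, 4 rose and 5 fell in pdx3-3, and 1 rose and 3 fell in pdx3-4. UGT85A1, a glucosyltransferase that stores zeatin as an O-glucoside, had 41.0 ± 1.22 CPM in pdx3-3 and 46.4 ± 3.17 CPM in pdx3-4, against 13.0 ± 3.71 CPM in Col-0. It rose by 1.61 on the log2 scale in pdx3-3 (SE 0.158, adjusted p = 2.06e-05) and by 1.79 in pdx3-4 (SE 0.158, adjusted p = 1.05e-05). CKX4, a cytokinin oxidase that degrades the hormone, had 34.4 ± 1.94 CPM in pdx3-3 and 15.2 ± 1.06 CPM in pdx3-4, against 13.2 ± 3.98 CPM in Col-0. It rose in pdx3-3 (log2 1.31, SE 0.185, adjusted p = 0.000271) and had log2 0.14 in pdx3-4 (adjusted p = 0.604). UGT76C2, which makes N-glucosides, fell by 0.34 on the log2 scale in pdx3-3 (adjusted p = 0.00736) and by 0.46 in pdx3-4 (adjusted p = 0.00111).

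Of 4 tested transport genes, 2 rose and 1 fell in pdx3-3, and 2 rose and 2 fell in pdx3-4. PUP14, an importer that takes active cytokinin up into cells, had 338, 557 and 592 CPM in pdx3-3 and 327, 312 and 289 CPM in pdx3-4, against 117, 121 and 91.2 CPM in Col-0. All mutant libraries lay above the highest Col-0 library. Its log2 fold change was 2.11 in pdx3-3 (SE 0.191, adjusted p = 1.11e-05) and 1.44 in pdx3-4 (SE 0.188, adjusted p = 0.000152). AZG1, a purine and cytokinin carrier, fell by 1.19 on the log2 scale in pdx3-3 (adjusted p = 5.99e-05) and by 0.91 in pdx3-4 (adjusted p = 0.000305). ENT3, a nucleoside carrier named FUR1 in the reference, rose by 0.71 in pdx3-3 (adjusted p = 0.00732) and by 1.00 in pdx3-4 (adjusted p = 0.000732).

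Between hormone and type-A genes stand the receptors, the shuttle proteins and the type-B factors. Of 7 tested receptor and shuttle genes, 1 rose and 1 fell in pdx3-3, and 2 rose and 1 fell in pdx3-4. The receptor gene AHK4 (WOL in the reference) fell by 0.64 on the log2 scale in pdx3-3 (adjusted p = 0.0014) and by 0.71 in pdx3-4 (adjusted p = 0.000625). AHK2, another receptor gene (HK2 in the reference), rose in pdx3-4 (log2 0.80, adjusted p = 0.00103) and had log2 0.22 in pdx3-3 (adjusted p = 0.26). The shuttle gene AHP5 rose by 0.27 in pdx3-3 (adjusted p = 0.0416) and by 0.34 in pdx3-4 (adjusted p = 0.0135), and upper-quartile factors removed both calls. The pdx3-3 call of AHP5 was also lost with no filter, with DESeq2, with only these genotypes fitted and when 1 of 6 single libraries was left out. Of 6 tested type-B genes, 1 rose in pdx3-3 and 3 rose in pdx3-4, and none fell. ARR1 rose by 0.67 in pdx3-4 (adjusted p = 5.71e-05) and by 0.22 in pdx3-3 (adjusted p = 0.0457), which upper-quartile factors reduced to 0.09 with no call. That pdx3-3 call of ARR1 was also lost with no filter, with only these genotypes fitted and when 1 of 7 single libraries was left out. ARR2 rose by 0.40 in pdx3-4 (adjusted p = 0.0316) and ARR14 by 0.26 (adjusted p = 0.0234), and both calls depended on single libraries. Upper-quartile factors removed both of these calls, and DESeq2 that of ARR14.

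KMD proteins are F-box proteins that target type-B regulators for degradation. Of 4 tested KMD genes, 2 rose in pdx3-3 and 3 rose in pdx3-4. KMD2 (AT1G15670) had 16.0 ± 1.26 CPM in pdx3-3 and 21.9 ± 2.00 CPM in pdx3-4, against 5.01 ± 0.783 CPM in Col-0, with log2 1.62 (SE 0.120, adjusted p = 2.66e-06) and 2.07 (SE 0.118, adjusted p = 9.82e-07). KMD1 (AT1G80440) rose by 0.84 in pdx3-3 (adjusted p = 3.83e-05) and by 0.73 in pdx3-4 (adjusted p = 9.86e-05). KMD3 (AT2G44130) rose by 0.42 in pdx3-4 (adjusted p = 0.0244) and had log2 −0.30 in pdx3-3 (adjusted p = 0.104). The pdx3-4 call of KMD3 depended on single libraries and was lost with upper-quartile factors (0.30, adjusted p = 0.0905). With upper-quartile factors the pdx3-3 value of KMD3 was called lower (−0.42, adjusted p = 0.0298).

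Among the cytokinin response factors and a separate list of cytokinin-induced genes, results were also mixed. Of 6 tested cytokinin response factors 1 rose in each mutant, CRF6, by 0.79 on the log2 scale in pdx3-3 (adjusted p = 0.00673) and by 1.10 in pdx3-4 (adjusted p = 0.000768). Of the 4 listed cytokinin-induced genes, 2 fell in pdx3-3 and 1 in pdx3-4. EXPA1, a cell wall expansin that responds to several hormones, had 96.4 ± 15.8 CPM in pdx3-3 and 61.5 ± 5.71 CPM in pdx3-4, against 316 ± 40.0 CPM in Col-0, a log2 fold change of −1.77 (SE 0.134, adjusted p = 3.21e-06) and −2.42 (SE 0.138, adjusted p = 9.9e-07). GATA22 (CGA1 in the reference), a regulator of greening, fell by 0.65 in pdx3-3 (adjusted p = 0.0412), a call that any single pdx3-3 library left out removed. That call was also lost with DESeq2, limma-voom or library size only. The same held without pdx3-4 library 2, Col-0 library 1 or Col-0 library 2. Neither type-C gene passed the filter. Among the genes named here that are not members, the pdx3-3 calls of UGT76C2, AHP5, ARR1 and GATA22 were lost without pdx3-3 libraries 1 and 2.

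**Figure D5:**
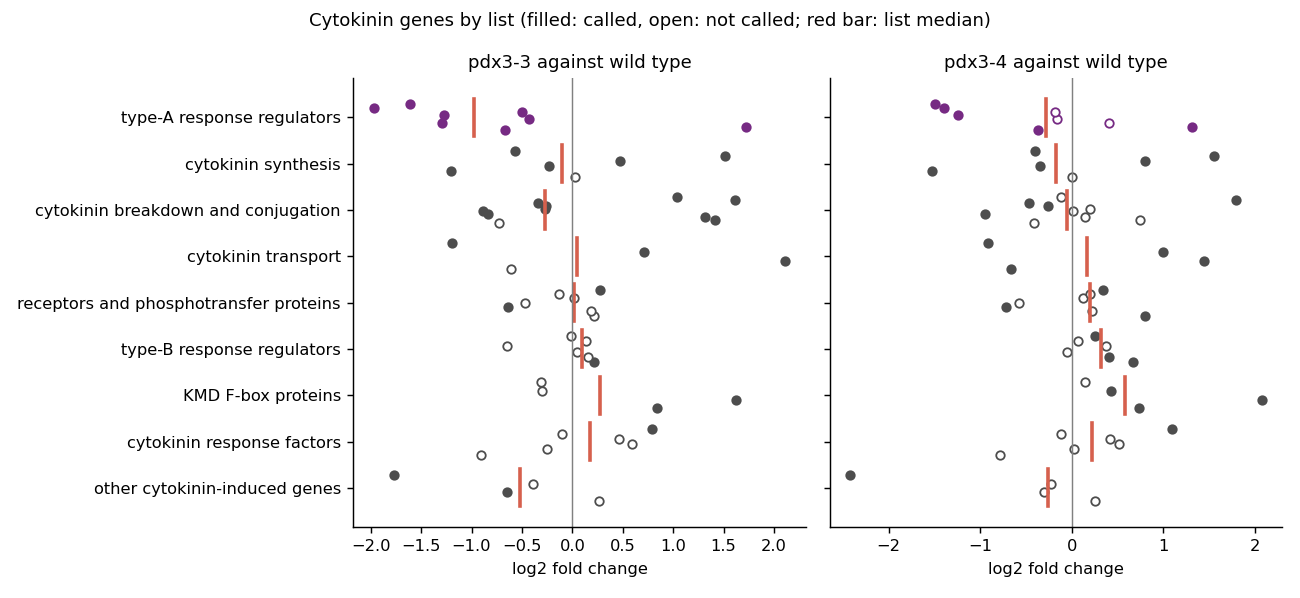
Log2 fold change of each tested cytokinin gene (points; filled: called, open: not called) by list, in pdx3-3 against Col-0 (left) and pdx3-4 against Col-0 (right), with the list median (red bar). The type-A list has its median at −0.97 in pdx3-3 and −0.28 in pdx3-4 and holds 1 gene far to the right, ARR5, while the other lists spread to both sides of 0, except the KMD genes in pdx3-4, which all lie above it.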

How the data were processed

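Messenger RNA of whole rosettes was sequenced in 9 libraries, pooled on an Illumina HiSeq2000 after TruSeq stranded preparation, per the labels. The authors deposited whole-number counts, 1 value per locus and library, without normalization; per the submitters' processing notes, FastQC, TopHat2 (version 2) and the build TAIR10 were used. How reads were counted (tool, strand, reads with several places) is not given in the sources used here. Replicate libraries differed beyond sampling noise (chi-square per degree of freedom 5.53 to 26.7), so each counted once.

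CPM is the count over the library total, times 1000000. Genes were filtered with filterByExpr (18783 of 33602 left). TMM factors ran from 0.949 to 1.03. Tests used edgeR 4.0.16 in R 4.3.3 (quasi-likelihood, genotype as the only term, 6 residual degrees of freedom). Calls are Benjamini-Hochberg adjusted p under 0.05. The SE comes from the test's F statistic. Names and positions come from RefSeq's TAIR10.1 annotation (32835 IDs matched) and level per kb uses the union of a gene's exons. The procedure was tested on simulated data.

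The members and the gene lists were chosen with earlier results of these data known, so no adjusted p is printed for members. For named genes of the lists it is printed as a description only. Named are all members, up to 3 called genes per cytokinin list with the smallest adjusted p, PDX3, and the 3 genes nearest in pattern to each of the 3 members highest per kb (mean of at least 5 CPM). Alternatives were other size factors, other filters, DESeq2 1.42.0, limma-voom (limma 3.58.1), robust fits, organellar genes left out, only the genotypes compared, the replicate number as a block, each library left out, and pdx3-3 libraries 1 and 2 left out together. Length was also taken from the longest transcript, and CPM from TMM-scaled totals.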

Additional observations from a re-analysis of the deposited data

Results flagged for a closer look

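Among the genes named, 7 differed between the alleles by the test of that difference (edgeR's quasi-likelihood test, Benjamini-Hochberg over 18783 genes, 3 libraries of each allele). Over all genes tested, 3.32% were called higher and 2.84% lower in pdx3-3 than in pdx3-4. The genes that are not members were named for a small adjusted p in any comparison, this one included. Nothing is therefore read from the count of 7. ARR6 was lower in pdx3-3 than in pdx3-4 by a log2 fold change of −1.70, in all 3 libraries. CKX4 was higher in pdx3-3 (log2 1.17, adjusted p = 0.00503), as was EXPA1 (log2 0.65, adjusted p = 0.0184), whose level was below Col-0 in both. AHK2 (log2 −0.58, adjusted p = 0.0324), ARR1 (log2 −0.45, adjusted p = 0.00739), KMD2 (log2 −0.45, adjusted p = 0.0315) and KMD3 (log2 −0.72, adjusted p = 0.0107) were lower in pdx3-3. Libraries of the alleles did not overlap for any of the 7, but the 7 were picked by a call on these same values. The lack of overlap therefore adds no support. Without pdx3-3 libraries 1 and 2 the calls of all 7 were lost, with 1 pdx3-3 library left. Leaving out pdx3-4 library 3 also ended the calls of KMD3 and EXPA1, and leaving out pdx3-4 library 2 that of EXPA1. The call of AHK2 was also lost under the replicate block and when 1 of 5 single libraries was left out, and that of KMD2 when 1 of 5 was left out.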

How the results depend on the processing

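Of 496 fold changes of members under alternatives, 485 kept their direction and side of the threshold, 2 became calls, 6 lost the call and 3 changed sign. Of 1364 for the other genes named, 1279 kept both. With no filter, 2 members were called higher in pdx3-4 against wild type (ARR5 and ARR17) and 2 lower in pdx3-3 against pdx3-4 (ARR6 and ARR17). Leaving out 1 library gave 1 to 2 members called higher in pdx3-4. Without pdx3-3 libraries 1 and 2, 0 members were called lower in pdx3-3 against pdx3-4, and 4014 of all genes were called in pdx3-3 against wild type and 358 between the alleles, where 1 pdx3-3 library is assumed to vary like the rest. Between the alleles, leaving out 1 library gave 391 to 1816 genes called, with 521 without pdx3-3 replicate 2, 599 without pdx3-4 replicate 2, 391 without pdx3-4 replicate 3 and 1816 without Col-0 replicate 3. Values that changed sign when 1 library was left out ranged from −0.0864 to 0.69 for ARR6 in pdx3-4, −0.13 to 0.0795 for ARR8 between the alleles, −0.14 to 0.0791 for LOG7 between the alleles, −0.10 to 0.32 for CKX4 in pdx3-4, −0.0290 to 0.15 for AHK4 between the alleles and −0.0475 to 0.0320 for ARR14 in pdx3-3. Without pdx3-3 libraries 1 and 2, LOG7 was at 0.16 and AHK4 at −0.0792 between the alleles, and with library size only ARR14 was at 0.0386 in pdx3-3. The cause of these changes was not tested.

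The replicate block gave 6470, 6918 and 1089 genes called for pdx3-3, pdx3-4 and between the alleles, against 6846, 7369 and 1157, no call of a member changed, and among the other genes named KMD3 in pdx3-3 gained a call (−0.31, adjusted p = 0.0337) and AHK2 between the alleles lost one. The sample titles give a replicate number only, and whether same-numbered libraries share a batch was not tested. Deviations of same-numbered libraries from their group means correlated at −0.15 to 0.34, and not every library correlated best with its own number. The highest value of any pair, 0.34, was between pdx3-4 library 1 and Col-0 library 1. Upper-quartile factors moved the median of all genes to −0.15 in pdx3-3 and −0.13 in pdx3-4 and the split to 2879 higher and 5553 lower in pdx3-3 and 3090 and 5317 in pdx3-4, against 3562 and 3284, and 3921 and 3448; with library size only it was 4147 and 2531, and 4440 and 2778. No member's fold change against wild type turned sign under any of the 3 other scalings. With the longest transcript as length, ARR5 and ARR9 changed places by CPM per kb in pdx3-4. ARR3 and ARR17 are limited by depth.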

Other observations

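The genes whose centred log2 CPM followed a member most closely over the 9 libraries were searched among 13738 genes with a mean of at least 5 CPM, for the 3 members highest per kb. For ARR4 they were KNAT3 (AT5G25220; root mean square difference 0.0889), a homeobox gene, with 30.1 ± 1.28 CPM in pdx3-3, 39.7 ± 0.883 CPM in pdx3-4 and 47.6 ± 1.80 CPM in Col-0 (SD, n = 3 each), then AT4G25260 (0.0997) and PPa2 (AT2G18230; 0.102), a pyrophosphatase gene. For ARR7 they were AT5G15570 (0.0661), AT3G13740 (0.0847) and AT2G05160 (0.0872). For ARR9 they were AT3G46320 (0.0883), CAB2 (AT1G29920; 0.0920), a light-harvesting protein gene with 8577 ± 162 CPM in pdx3-3, 9697 ± 506 CPM in pdx3-4 and 10708 ± 659 CPM in Col-0, and AT5G59400 (0.0952). A small difference is easier to reach for members that varied little, such as these (own root mean square 0.295 for ARR4, 0.218 for ARR7, 0.230 for ARR9). These likenesses describe 9 libraries of 3 genotypes and carry no test.

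Flower markers (AP1, AG and PI) summed to 1.19 to 2.68 CPM in pdx3-3 and 0.288 to 1.22 CPM in pdx3-4, against 3.19 to 4.15 CPM in Col-0. Most of this difference lay in AG, with a mean of 0.544 CPM in pdx3-3 and 0.270 CPM in pdx3-4, against 2.87 CPM in Col-0. In the same order AP1 averaged 0.885, 0.429 and 0.506 CPM, and PI averaged 0.607, 0.141 and 0.207 CPM. AP1 and PI were thus higher by mean in pdx3-3 than in Col-0, with overlapping libraries. The 6 markers of dividing cells summed to 48.6 to 55.2 CPM in pdx3-3 and 51.8 to 62.2 CPM in pdx3-4, against 44.9 to 74.0 CPM in Col-0, where library 3 was highest, so the genotypes overlapped.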
